A study of Rattus norvegicus with 2 samples.

Results

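Circular RNAs (circRNAs) form when a downstream splice site is joined back to an upstream one, and each is identified by the pair of genome positions at its back-splice junction. The circRNAs described here are those whose junction was assigned to several host genes. They are the rows of the deposited table that keep 2 or more host names once small RNA names (small nucleolar RNAs, Y RNAs and the like) are set aside, and chromosome Y is left out. There were 407 of them among 17260 circRNAs (2.36%). Of these, 392 carried 2 host names and 15 carried 3, while 16491 circRNAs carried 1 and 362 carried none.

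Per the labels, bone cancer pain was set up in SD rats by injecting Walker256 cells, a rat breast carcinoma line, that were taken from ascites, into the marrow cavity of the tibia. Control rats had the same operation with Walker256 cells that had been boiled for 20 minutes. Each group held 3 animals, killed 21 days after surgery, and was sequenced as 1 library, and whether the animals' RNA was mixed is not given. As source the labels give cancer cells in one field and cells of the spinal cord in another. With 1 library per group there was no test between conditions, so every ratio compares 2 libraries, and every interval is exact, at 95%, and covers counting error only. In bulk RNA of this kind, fewer cells of a type and less RNA per cell cannot be told apart.

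A junction can carry several host names in several ways. Neighbouring genes on the same strand can be transcribed as 1 read-through RNA, which annotations list under a joined name such as PALM2-AKAP2, so an exon of AKAP2 then belongs to both entries. Genes can also overlap on opposite strands, be nested in an intron of another gene, or be crossed by a transcript known only by the name of its genomic clone, such as RP11-407N17.3. A circRNA can also be spliced across a gene boundary. The table gives positions without strand, exons or a genome build, so these cases are told apart below only by the names and by the ends that junctions share. No genome of the build of these positions was used here, so no junction sequence is shown.

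The bone cancer pain library held 151685 circular junction reads and the control library 159941. The host names and catalogue identifiers were of human style although the samples are labelled as rat, and positions are given as the table has them. Of markers of neural cells, 1 of 10 neuronal genes (SYT1), 1 of 10 oligodendrocyte genes (MBP) and 1 of 7 astrocyte genes (GJA1) had any circRNA. None of 6 microglial and macrophage genes did. Of 8 genes for epithelial and dividing cells, the 3 of dividing cells (MKI67, TOP2A and CCNB1) did. The epithelial ones (KRT8, KRT18, KRT19, EPCAM and CDH1) did not. For fibroblasts and endothelial cells it was 1 of 6 (COL3A1). SYT1, the calcium sensor of synaptic vesicles, was itself listed only on a junction with several host names, shared with RP1-78O14.1, and its 2 reads were all from bone cancer pain. Values are given as reads and as RPM, the scale of the table, in which the circular junction reads of each library add up to the same total.

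Junctions with several hosts took 2661 reads in bone cancer pain and 2675 in control. That was 1.75% of reads (interval 1.69 to 1.82) in bone cancer pain and 1.67% (1.61 to 1.74) in control, a ratio of 1.05 (0.994 to 1.11). Without the most abundant junction, at ARL6IP1, this ratio was 1.08 (1.02 to 1.14). For all 187 members with an identifier in circBase, a catalogue of published human circRNAs, it was 1.00 (0.940 to 1.06). It was 1.22 (1.09 to 1.37) for the 220 members without one, and 1.11 (0.990 to 1.25) when the NIPBL junction was left out of these. Among circRNAs with 1 host the same split gave 0.969 (0.961 to 0.976) with an identifier and 1.12 (1.1 to 1.14) without. Most members were scarce. The median was 4 reads over both libraries, against 5 for circRNAs with 1 host, and the most abundant had 392.

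Members were listed in both libraries less often than circRNAs with 1 host. Both libraries listed 134 of the 407 (32.9%, 28.4 to 37.7), against 42.5% (41.8 to 43.3) of circRNAs with 1 host. A further 137 (33.7%) were listed only for bone cancer pain and 136 (33.4%) only for control, against 29.4% and 28.6% of all circRNAs. These members had a median of 3 reads on each side. A circBase identifier was present for 45.9% of members (41.0 to 50.9) and 54.95% (54.2 to 55.7) of circRNAs with 1 host. These intervals do not overlap, but circRNAs of 1 locus share RNA and annotation, and the differences were not tested. A small RNA name, set aside here, was present on 34.9% of members and on 8.33% of circRNAs with 1 host. Where no small RNA name was present, the share with an identifier went the other way. It was 66.8% of 265 such members, against 58.7% of all such circRNAs.

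**Figure D1:**
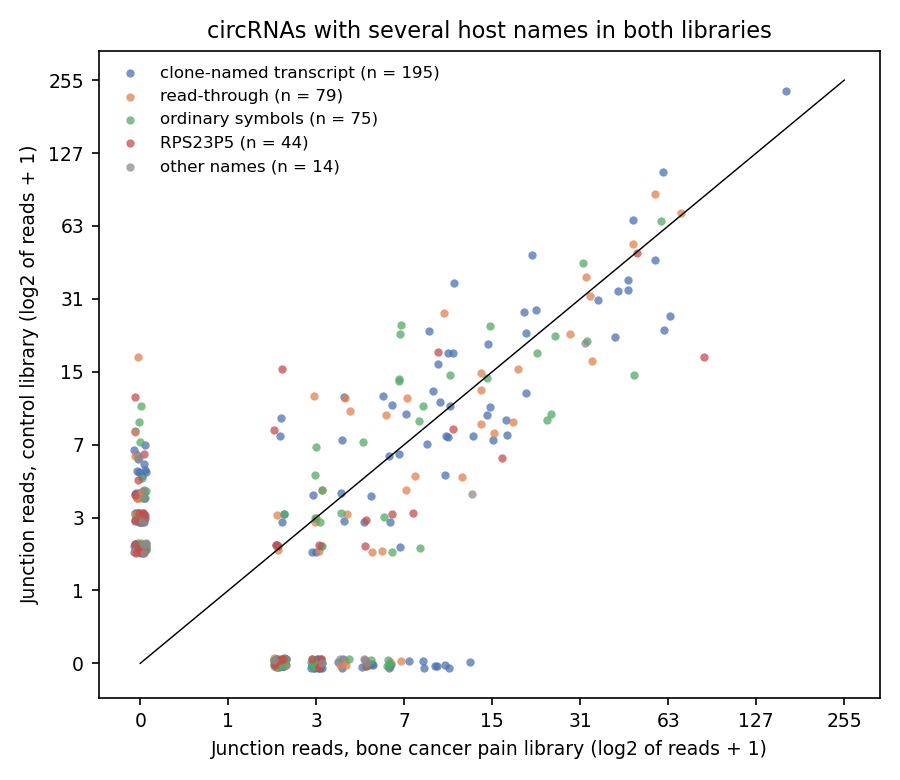
Junction reads of each of the 407 circRNAs with several host names in the bone cancer pain library (x axis) and the control library (y axis), as log2 of reads plus 1 with a small random shift so that points can be told apart; colours give the kind of name and the line marks equal reads. The most abundant point has 161 bone cancer pain and 231 control reads, and the points along the 2 axes are the 136 members listed only for control and the 137 listed only for bone cancer pain.

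The host names fell into a few kinds. In 195 members a clone-named transcript accompanied the other host, in 79 there was a read-through name, and 75 held ordinary gene symbols only. In 44 members the second name was RPS23P5, a pseudogene of a ribosomal protein. The other 14 comprised 10 with an antisense or intronic transcript, 3 with a microRNA gene or microRNA host gene and 1 with a LINC name. No member joined genes of 1 of the protocadherin, UGT1A, HLA or histone clusters, whose members share exons or have similar sequences. Altogether 437 different names made 236 combinations, of which 162 had 1 circRNA and 74 had 2 or more. Per kind, the ratio of summed reads was 1.03 (0.955 to 1.11) for clone names, 0.970 (0.862 to 1.09) for read-through names, 1.07 (0.940 to 1.22) for ordinary symbols and 1.28 (1.05 to 1.55) for RPS23P5. The RPS23P5 sum was 239 reads in bone cancer pain and 197 in control, and without the NIPBL junction its other 43 members had 159 in bone cancer pain and 180 in control, a ratio of 0.931 (0.748 to 1.16). Without their most abundant junction, clone names were at 1.09 (1.00 to 1.18) and read-through names at 1.01 (0.892 to 1.15). By the same rule ordinary symbols were at 1.09 (0.949 to 1.25). RPS23P5, whose most abundant junction was at RAI14 and not NIPBL, was at 1.34 (1.07 to 1.67).

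The member with the most reads was a circRNA of ARL6IP1, which encodes a membrane-shaping protein of the endoplasmic reticulum, paired with the clone name RP11-1035H13.3 (hsa_circ_0004833, chromosome 16, 18809247 to 18810156). It had 161 reads (1061 RPM) in bone cancer pain and 231 (1444 RPM) in control, a ratio of 0.735 (0.597 to 0.903). Next was a circRNA of CTAGE5, whose protein helps to load collagen for export from the endoplasmic reticulum, paired with RP11-407N17.3 (hsa_circ_0000530, chromosome 14, 39746138 to 39748741). It had 58 reads (382 RPM) in bone cancer pain and 107 (669 RPM) in control, a ratio of 0.572 (0.408 to 0.794). Both were lower in the bone cancer pain library by less than 2-fold. All reads of ARL6IP1 and of CTAGE5 in the table lay on junctions that also carried the clone name, so a sum over circRNAs with 1 host shows neither gene.

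The clone-named group held 117 combinations, and CSNK1G1, a casein kinase, with CTD-2116N17.1 had the most junctions of any combination, 11. Their spans ran from 404 to 61638 bp over 7 start and 5 end positions, and 4 of the 11 used the same end. Summed, they had 57 reads in bone cancer pain and 49 in control (1.23, 0.823 to 1.84), with the most abundant holding 24.5% of them. CRCP, a subunit of RNA polymerase III that was also described as a component of the receptor for calcitonin gene-related peptide, had 5 junctions with AC068533.7. Its most abundant junction (hsa_circ_0004604) had 49 reads in bone cancer pain and 67 in control (0.771, 0.522 to 1.13). FNTA, the alpha subunit of protein farnesyltransferase, with RP11-598P20.5 had 110 reads in bone cancer pain and 94 in control over 4 junctions (1.23, 0.928 to 1.64). KLC1, a kinesin light chain, with RP11-73M18.2 had 8 junctions with 47 reads in bone cancer pain and 41 in control (1.21, 0.778 to 1.88). The intervals of these 4 gene pairs included 1.

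Some clone names linked neighbouring genes. CTC-432M15.3 was paired with RAPGEF6, an activator of Rap GTPases, on 6 junctions and with FNIP1, a partner of folliculin, on another, and its junctions reached over 226415 bp. RP11-29G8.3 was paired with UCHL3, a ubiquitin hydrolase, on 1 junction and with LMO7, an adhesion protein, on 3. The UCHL3 junction had 35 reads in bone cancer pain and 30 in control. The LMO7 junctions had 65 reads in bone cancer pain and 29 in control (2.36, 1.5 to 3.80), and none of the 3 was higher in control. RP11-29G8.3 also had 3 circRNAs under its own name alone, with 18 reads in bone cancer pain and 35 in control (0.542, 0.289 to 0.984), which is the opposite direction.

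Read-through names occurred in 79 members under 38 joined names. The other host was the first part of the joined name in 34 members, the last part in 40, and both parts were named in 5. The 34 and the 40 had equal sums, with 268 reads in bone cancer pain and 297 in control for each set. The 5 that named both parts had 12 reads in bone cancer pain and 2 in control. Thus the joined name mostly stood beside 1 of its genes, and junctions naming both genes were few and had few reads.

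ANKHD1, an ankyrin-repeat scaffold, had 9 junctions under ANKHD1-EIF4EBP3, the second part being a repressor of translation initiation. All 9 were listed in both libraries and had a circBase identifier. Summed, they had 114 reads in bone cancer pain and 105 in control (1.14, 0.870 to 1.51). The most abundant (hsa_circ_0001540, chromosome 5, 139819704 to 139825560) had 31 reads in bone cancer pain and 38 in control, and the next (hsa_circ_0001541), which shares its start, had 29 in bone cancer pain and 21 in control. Only 1 circRNA carried the name ANKHD1 alone, with 3 reads in bone cancer pain and none listed in control.

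SPECC1L, a protein that links microtubules and actin, is joined in the annotation with ADORA2A, an adenosine receptor. Its 5 junctions had 76 reads in bone cancer pain and 117 in control (0.685, 0.506 to 0.922). The most abundant (hsa_circ_0007312, chromosome 22, 24698163 to 24709434) had 57 reads (376 RPM) in bone cancer pain and 84 (525 RPM) in control (0.716, 0.502 to 1.01). The next (hsa_circ_0062610, 24761444 to 24765288) had 10 in bone cancer pain and 26 in control (0.406, 0.175 to 0.869). A junction from the start of the first to the end of the second, spanning 67125 bp (hsa_circ_0062603), had 7 reads in bone cancer pain and none listed in control. So 3 junctions built from 2 starts and 2 ends did not lie on the same side of 1.

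AKAP2, an anchor for protein kinase A, with PALM2-AKAP2 (hsa_circ_0008706, chromosome 9, 112898407 to 112900819) had 69 reads in each library, which is 455 RPM in bone cancer pain and 431 RPM in control (1.05, 0.744 to 1.49). RBM4, a splicing regulator, with RBM14-RBM4 (hsa_circ_0000330) had 48 in bone cancer pain and 54 in control (0.937, 0.622 to 1.41). MOB4, with HSPE1-MOB4 (hsa_circ_0057680), had 33 in bone cancer pain and 16 in control (2.17, 1.16 to 4.23). ASB3, part of a ubiquitin ligase, with GPR75-ASB3 had 6 reads in bone cancer pain and 22 in control over 5 junctions (0.288, 0.0954 to 0.731). MOB4 and ASB3 were named here after their values were seen.

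The 3 shortest members named here had read-through names, and 2 clone-named junctions, at ZGPAT and at HDGFRP3, equalled the longest of these 3 at 143 bp. A junction of ZFP91, whose joined partner CNTF is a neurotrophic factor, spanned 139 bp and had 2 reads in bone cancer pain. One of LUC7L2, a splicing factor, spanned 140 bp and had 4, and one of NDUFC2, a subunit of respiratory complex I, spanned 143 bp and also had 4. None of the 3 was listed in control. The pair formed with C7orf55-LUC7L2 and LUC7L2 had 4 junctions, each listed only for bone cancer pain, with 11 reads in all.

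**Figure D2:**
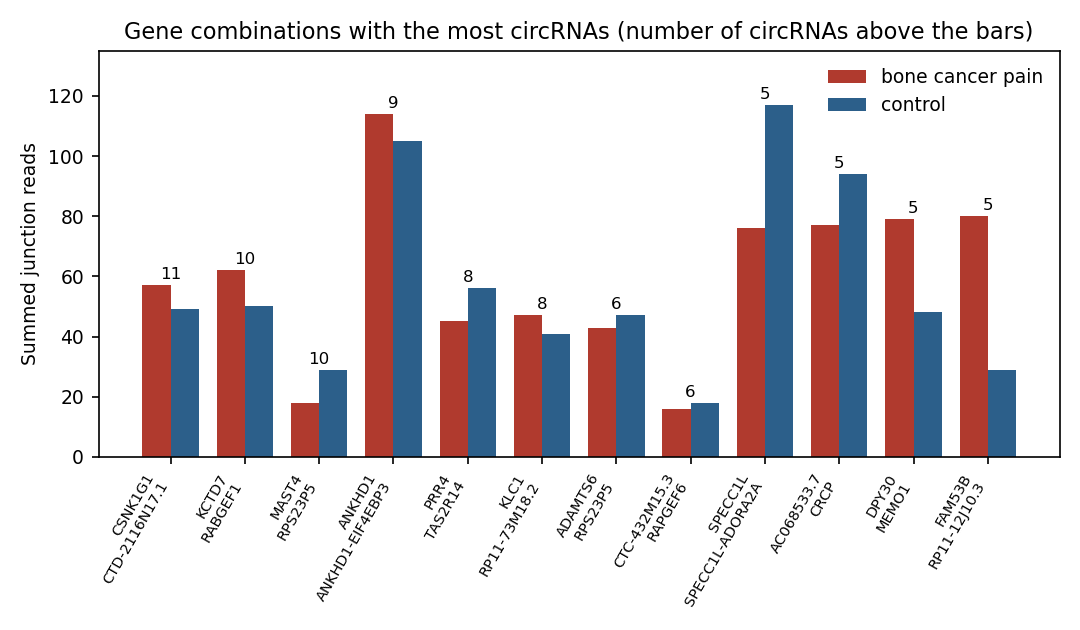
Summed junction reads of the 12 gene combinations with the most circRNAs, with the bone cancer pain library left (red) and the control library right (blue) in each pair of bars, and the number of circRNAs above. CSNK1G1 with CTD-2116N17.1 has the most junctions, 11, while SPECC1L with SPECC1L-ADORA2A has the most control reads, 117, from 5 junctions.

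In the 75 members with ordinary symbols only, 43 gene combinations occurred, 33 of them on 1 junction. The most abundant was PPP1CB, a catalytic subunit of protein phosphatase 1, with SPDYA, an activator of cyclin-dependent kinases (hsa_circ_0007439, chromosome 2, 29006773 to 29011675). It had 61 reads (402 RPM) in bone cancer pain and 68 (425 RPM) in control (0.946, 0.658 to 1.36). PPP1CB had 2 circRNAs under its own name, with no reads listed in bone cancer pain and 12 in control, and SPDYA had none. RABGEF1, an exchange factor for Rab5, and KCTD7, a potassium channel tetramerization domain protein, shared 10 junctions and had none under either name alone. They had 62 reads in bone cancer pain and 50 in control (1.31, 0.886 to 1.94), and only 2 of the 10 were listed in both libraries. Those 2 (hsa_circ_0006032 and hsa_circ_0007992) had 26 and 21 reads in bone cancer pain and 22 and 18 in control.

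DPY30, a subunit of histone H3 lysine methyltransferase complexes, and MEMO1, a regulator of cell motility, shared 5 junctions, each with a circBase identifier, made from 2 starts and 3 ends. Together they had 79 reads in bone cancer pain and 48 in control (1.74, 1.20 to 2.54). The 3 that shared a start at 32142995 on chromosome 2 had 32, 24 and 15 reads in bone cancer pain and 21, 10 and 14 in control, in the order hsa_circ_0007385, hsa_circ_0053394 and hsa_circ_0006790. All 5 had more reads in bone cancer pain. UBE3A, a ubiquitin ligase, and SNHG14, whose long transcript runs antisense to UBE3A in human and mouse neurons, shared 3 junctions. These had 40 reads in bone cancer pain and 60 in control (0.703, 0.459 to 1.07). The 6 circRNAs of UBE3A alone gave nearly the same ratio, 0.701 (0.545 to 0.898), from 109 reads in bone cancer pain and 164 in control.

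Junctions of PRR4, a secreted proline-rich protein, and TAS2R14, a bitter taste receptor, went both ways. Of their 8 junctions, 3 ended at 11199787 on chromosome 12. The one of 12406 bp (hsa_circ_0025462) had 24 reads (158 RPM) in bone cancer pain and 9 (56.3 RPM) in control (2.81, 1.26 to 6.87). The one of 18787 bp had 7 reads (46.1 RPM) in bone cancer pain and 22 (138 RPM) in control (0.336, 0.121 to 0.813). The one of 73533 bp (hsa_circ_0007481) had none listed in bone cancer pain and 10 in control. The pair summed to 45 reads in bone cancer pain and 56 in control (0.847, 0.559 to 1.28), so a sum over the pair hides junctions that differ in opposite directions. The 2 circRNAs of PRR4 alone had 2 reads in bone cancer pain and 18 in control (0.117, 0.0132 to 0.489).

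In the gene table of the rat (assembly GRCr8), 22 of the 43 pairs of ordinary symbols had a protein-coding gene of the same name for both members. In 16 pairs these were next to each other among protein-coding genes, among them PPP1CB with SPDYA, DPY30 with MEMO1 and KCTD7 with RABGEF1. In 3 they overlapped, namely CDK4 with TSPAN31, AVEN with CHRM5 and LRRC41 with RAD54L. Of the other 3, RBX1 and XPNPEP3 had 1 gene between them, EIF2B5 and PSMD2 had 8, and ARID4B and RBM34 were on different chromosomes.

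The 44 junctions with RPS23P5 stood apart by where they lay. All were on chromosome 5, which held 63 of the 407 members and 913 circRNAs in all. The outermost ends of circRNAs with this name were at 14219518 and 80422982, a reach of 66.2 Mb. The next largest reach of any host name was 0.905 Mb, for MAGI2. The name was paired with 23 other names, from TRIO to RASGRF2, and 3 further circRNAs carried it alone.

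**Figure D3:**
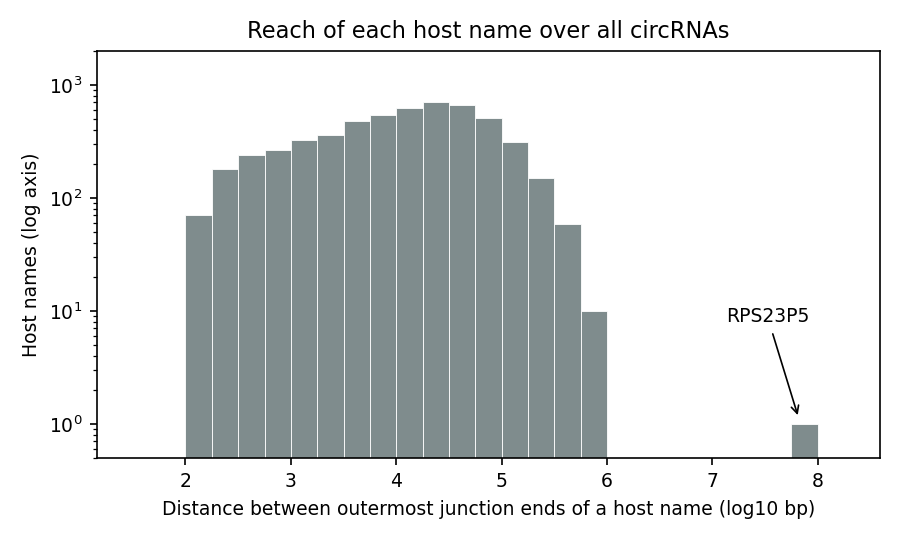
Number of host names (y axis, log scale) by the distance between the outermost junction ends of all circRNAs that carry the name (x axis, log10 of bp), over the whole table. RPS23P5 stands alone at 66.2 Mb, and the next name, MAGI2, is at 0.905 Mb.

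All 44 also carried Y_RNA among the small RNA names that were set aside. Of 356 circRNAs within that reach, 47 carried RPS23P5 and the same 47 carried Y_RNA, while the other 309 carried no small RNA name at all. Only 4 of the 44 had a circBase identifier (9.09%, 2.53 to 21.7), against 186 of those 309 (60.2%). The same contrast held over the table: 14.6% of the 1854 circRNAs with a small RNA name had an identifier, against 58.7% of the others. Among all 407 members it was 10 of the 142 with a small RNA name (7.04%) and 177 of the 265 without (66.8%). The name reached over 66.2 Mb, while the longest of the 44 junctions spanned 183638 bp. No single position therefore lies within all 44, and which of them hold RPS23P5, if any, was not tested. Without this name, 364 circRNAs keep several hosts.

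Among the 44 with RPS23P5, the junction of NIPBL, the loader of cohesin onto DNA (chromosome 5, 36982267 to 36986403), had 80 reads (527 RPM) in bone cancer pain and 17 (106 RPM) in control. Its ratio of 4.96 (2.91 to 8.94) was the highest of the 65 members with 20 or more reads. The 5 circRNAs of NIPBL under its own name alone went the same way, with 49 reads in bone cancer pain and 8 in control (6.46, 3.03 to 15.8). The junction of RAI14, an actin-bundling protein (34793378 to 34796132), had 50 reads in bone cancer pain and 48 in control (1.1, 0.724 to 1.67). RAI14 alone had 8 reads in bone cancer pain and 32 in control over 4 circRNAs (0.264, 0.105 to 0.584). That interval does not overlap the one of the junction with RPS23P5. However, the junction lies at the same locus and shares its end with a circRNA of RAI14 alone, and the difference was not tested.

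ADAMTS6, a secreted metalloprotease, had 6 junctions with RPS23P5, of which the one from 64625205 to 64630285 had 17 reads in bone cancer pain and 6 in control (2.99, 1.12 to 9.25). Another, of 16933 bp, had 2 in bone cancer pain and 16 in control (0.132, 0.0147 to 0.561). The 6 summed to 43 reads in bone cancer pain and 47 in control (0.965, 0.623 to 1.49), against 738 in bone cancer pain and 582 in control (1.34, 1.20 to 1.49) for 26 circRNAs of ADAMTS6 alone. MAST4, a kinase, had 10 junctions with the name, with 18 reads in bone cancer pain and 29 in control (0.654, 0.342 to 1.22). One of them had the longest span of any member, 183638 bp, with none listed in bone cancer pain and 2 reads in control.

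Few junctions carried an antisense, intronic or microRNA name. A junction of KCNQ5, a voltage-gated potassium channel, with its intronic transcript KCNQ5-IT1 (chromosome 6, 73357660 to 73358632) had 33 reads (218 RPM) in bone cancer pain and 21 (131 RPM) in control (1.66, 0.931 to 3.01). KCNQ5 alone had 15 reads in bone cancer pain and 2 in control. WASF3, an actin regulator, with WASF3-AS1 had 12 in bone cancer pain and 4 in control (3.16, 0.959 to 13.5); it was named after its values were seen. NR6A1, an orphan nuclear receptor, with MIR181A2HG, the host gene of a miR-181 cluster, had 5 reads in bone cancer pain and none listed in control. SDHAP2, a pseudogene, with LINC00969 had none in bone cancer pain and 4 in control.

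All 15 members with 3 names had under 10 reads. A junction at NDUFA13, a complex I subunit, with YJEFN3 and CTC-260F20.3 (hsa_circ_0050243) had 4 in each library. ERCC6, a DNA repair protein, shares a locus with PGBD3, a domesticated transposase in one of its introns, and their joined name. Both junctions with these 3 names were listed only for bone cancer pain, with 6 and 2 reads. ERCC6 alone had 106 reads in bone cancer pain and 142 in control (0.787, 0.606 to 1.02). A junction with TM9SF1, CHMP4A and AL136419.6 (hsa_circ_0007326) had none listed in bone cancer pain and 6 in control.

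Junctions with several hosts were shorter than those with 1. The median distance between their ends was 3635 bp (quartiles 980.5 to 10949.5 bp), against 5751 bp for circRNAs with 1 host. It was 2979 bp with clone names, 4440 bp with read-through names, 3510 bp with ordinary symbols and 5736 bp with RPS23P5. With 2 names (392 members) the median was 3776 bp. With 3 names it was 1481 bp, over only 15 members, some of them at the same locus. Members with a circBase identifier (3778 bp) and without (3616 bp) had like medians. The longest spans after that of MAST4 were 92779 and 73533 bp, both at PRR4 and TAS2R14. They were followed by 71187 bp at PRRG1 and TM4SF2, a tetraspanin, and 67496 bp at SHB, an adaptor protein, with RP11-613M10.9. The difference in span was not tested, since junctions of 1 locus are not independent.

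**Figure D4:**
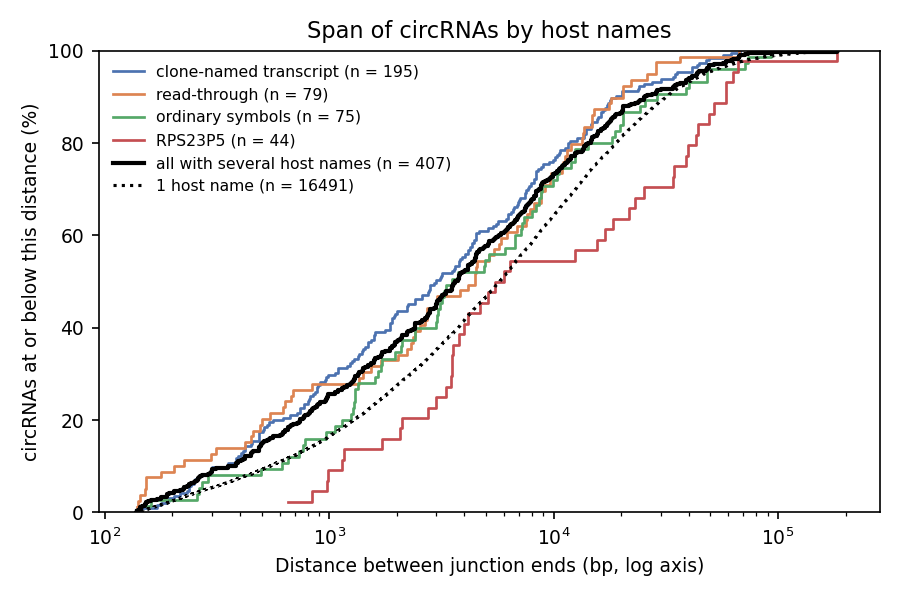
Share of circRNAs (y axis, percent) at or below a distance between junction ends (x axis, bp, log scale), for all 407 circRNAs with several host names (thick black), for 4 kinds of names (colours) and for the 16491 circRNAs with 1 host name (dotted). The black curve lies left of the dotted one at its median, 3635 bp against 5751 bp, and the RPS23P5 curve reaches farthest right, to 183638 bp.

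Back-splice ends link members to circRNAs with 1 host. At least 1 of the other circRNAs, whatever its hosts, used the same start or the same end in 217 of 407 members (53.3%, 48.3 to 58.2) and in 62.5% (61.7 to 63.2) of circRNAs with 1 host. Only 76 members shared an end with a circRNA of 1 host, and in each case at least 1 such circRNA carried one of the member's own names. CircRNAs that use the same end lie at the same locus, so the shared name says nothing further about the members. Of the 204 members with a name that also had a circRNA alone, these 76 made 37.3% (30.6 to 44.3). The other 203 members had no name with a circRNA alone. Just 1 member, 0.490% of the 204, had both its ends in use by circRNAs of 1 host. Among circRNAs of 1 host, 17.8% (17.3 to 18.4) had both ends used by others of that kind. These shares are not like for like, since only the second compares circRNAs with their own kind. With circRNAs of any hosts counted, both ends were in use in 11.8% of the 407 members (8.82 to 15.3). The same count gave 18.0% (17.4 to 18.6) of circRNAs with 1 host. The member with both ends in use by circRNAs of 1 host was a junction of CPNE1, a calcium-dependent membrane binder, with RP1-309K20.6 (hsa_circ_0005587, chromosome 20, 34243124 to 34246936). Its start was used by CPNE1 and its end by CPNE1 and by RBM12. One start, at 167435897 on chromosome 6, was used by a member at FGFR1OP and RP11-517H2.6 and also by circRNAs of each of these names alone.

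Of the 407 members, 102 had 10 or more reads over both libraries, the minimum for a call by size. A member was called at a ratio of 2 or more, or 0.5 or less, with 0.5 reads added to each library. By this rule 19 were at least 2-fold higher in bone cancer pain (18.6%), against 17.3% of all 5415 circRNAs with 10 or more reads. A further 17 were at least 2-fold lower (16.7%), against 17.0% of all, and 66 lay between. Both shares were close to those of all circRNAs. The median log2 ratio was 0.03 over these members and -0.004 over all. By kind, 9 of 47 with clone names were higher and 5 lower, 2 of 23 with read-through names were higher and 5 lower, and 4 of 21 with ordinary symbols were higher and 4 lower. With RPS23P5, 3 of 9 were higher and 3 lower.

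Members with 20 or more reads were ranked by their ratio with 0.5 reads added to each library, while the ratios printed carry no added reads. The 6 highest began with NIPBL, given above. ZNF789 with ZNF394, a pair of zinc finger genes (hsa_circ_0001726, chromosome 7, 99090663 to 99092254), had 46 reads (303 RPM) in bone cancer pain and 15 (93.8 RPM) in control (3.23, 1.77 to 6.24). After the ADAMTS6 and PRR4 junctions came ARF3, a small GTPase of the Golgi, with RP11-302B13.5 (hsa_circ_0003770, chromosome 12, 49333438 to 49334971). It had 59 reads (389 RPM) in bone cancer pain and 23 (144 RPM) in control (2.70, 1.65 to 4.59). FAM53B with RP11-12J10.3 (hsa_circ_0000267, chromosome 10, 126370176 to 126370948) had 65 reads (429 RPM) in bone cancer pain and 27 (169 RPM) in control (2.54, 1.60 to 4.14). A second FAM53B junction from the same start (hsa_circ_0003570) had 10 reads in bone cancer pain and none listed in control. All 5 FAM53B junctions summed to 80 reads in bone cancer pain and 29 in control (2.91, 1.88 to 4.62).

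The lowest ratio was that of TSPAN31, a tetraspanin, with CDK4, a kinase of the G1 phase (hsa_circ_0005326, chromosome 12, 58142322 to 58143287). It had 7 reads (46.1 RPM) in bone cancer pain and 24 (150 RPM) in control (0.308, 0.112 to 0.736), while a circRNA of CDK4 alone had 12 in bone cancer pain and 16 in control (0.791, 0.341 to 1.78). The CPNE1 junction had 11 reads (72.5 RPM) in bone cancer pain and 37 (231 RPM) in control (0.313, 0.144 to 0.628), and the 3 circRNAs of CPNE1 alone had 49 in each library (1.05, 0.695 to 1.60). Next were the PRR4 and SPECC1L junctions given above. FNIP1 with CTC-432M15.3 had 9 in bone cancer pain and 22 in control (0.431, 0.175 to 0.975). The 5 circRNAs of FNIP1 alone had 20 in bone cancer pain and 12 in control (1.76, 0.818 to 3.94). BABAM1, a subunit of the BRCA1-A complex, with CTD-2278I10.6 (hsa_circ_0003253) had 22 in bone cancer pain and 46 in control (0.504, 0.289 to 0.856), just inside 2-fold. Without the added reads a junction of ADAMTS6 with RPS23P5 (hsa_circ_0006144) would take its place, with 9 in bone cancer pain and 19 in control (0.499, 0.199 to 1.16).

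**Figure D5:**
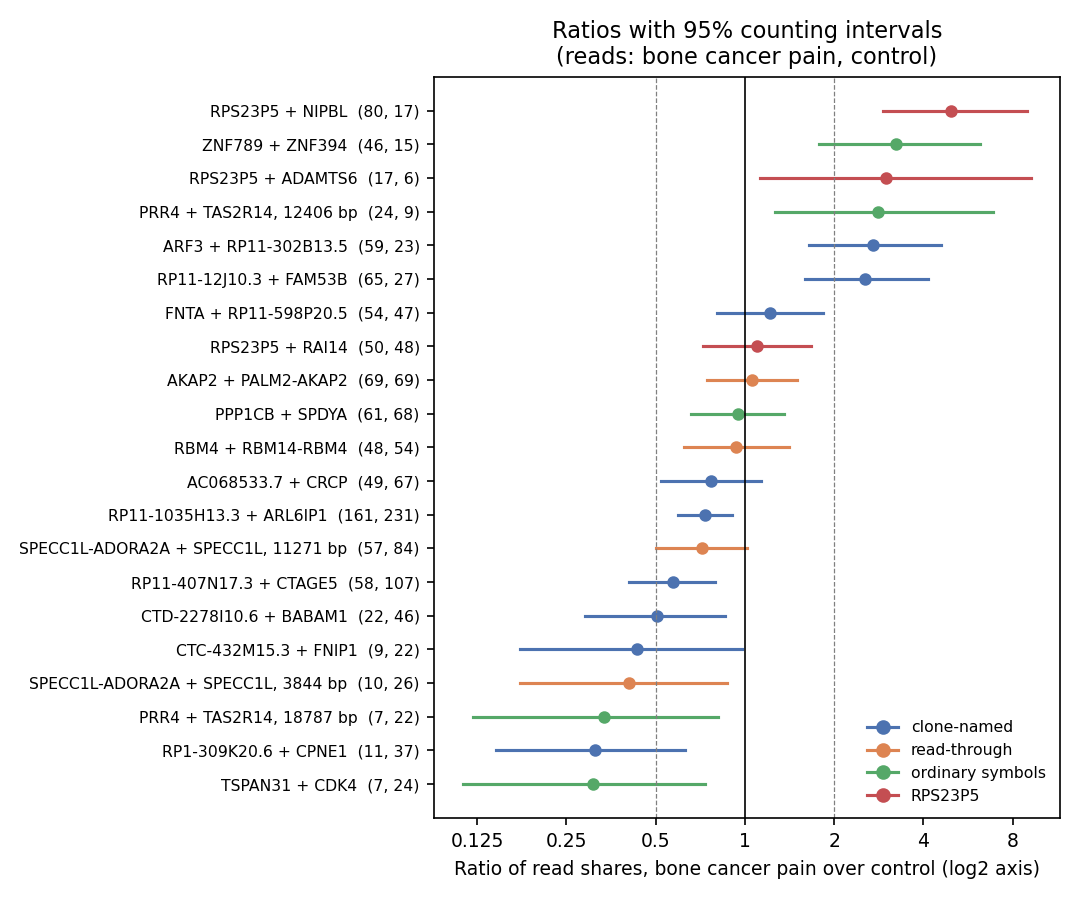
Ratio of read shares, bone cancer pain over control (x axis, log2 scale), with exact 95% counting intervals, for the 10 members with the most reads and the 6 highest and 6 lowest ratios among those with 20 or more reads, ranked with 0.5 reads added to each library; reads stand beside each name, bone cancer pain first, and dashed lines mark 2-fold. Ratios run from 0.308 at TSPAN31 with CDK4 to 4.96 at NIPBL with RPS23P5, and PRR4 with TAS2R14 appears on both sides of 1.

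Of the 102 members with 10 or more reads, 6 were listed in 1 library only, 3 in each. The same share over all circRNAs with 10 or more reads was not counted. These 6 were named after their values were seen, and no fold is given because the table lists no value below 2 reads. For bone cancer pain these were SNX15 with RP11-399J13.3 (hsa_circ_0022746, 12 reads), GUSBP11 with KB-1572G7.2 (hsa_circ_0062548, 10 reads) and the second FAM53B junction. For control they were C20orf24 with TGIF2-C20orf24 (hsa_circ_0060193, 17 reads), RASGRF2 with RPS23P5 (11 reads) and the 73533 bp junction of PRR4 with TAS2R14. The first part of that joined name, TGIF2 with TGIF2-C20orf24 (hsa_circ_0060191), had 4 reads in bone cancer pain and 10 in control (0.422, 0.0966 to 1.46).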

How the data were processed

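CircRNA sequencing was done on rat samples labelled as bone cancer pain and control, 1 library each. Per the labels' protocols, ribosomal RNA was depleted, linear RNA was digested with 16 units of RNase R for 15 minutes at 37 °C, and the strand was marked. CASAVA 1.8 and BWA and the build rn6 appear in the submitters' processing notes without a role; the circRNA caller is not given in the sources used here. Per the file headers the deposited values are TPM, but both columns were treated as RPM: the authors' values are whole multiples of 1 step per library (100% within 0.01 reads), with no length term. Dividing by that step gave the reads, 151685 in bone cancer pain and 159941 in control, and the placeholder 0.001 was taken as not listed. The depth sets the precision, which the counting intervals show.

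Ratios have exact conditional binomial intervals and shares exact binomial (Clopper-Pearson) ones. Calls go by size, without a test: 10 or more reads, and a ratio at or past 2 or 0.5 once 0.5 reads are added to both libraries. Named by rule were the 10 most abundant members, the 6 top and 6 bottom ratios (0.5 reads added) at 20 or more reads, the 5 longest and 3 shortest spans, 3 with 3 names, the 5 combinations with most circRNAs and the most abundant of each kind of name; every other circRNA named was chosen after its values were seen. Members, lists and rules were chosen with earlier results of these data known. Kinds of names were widened after the table was seen: the stricter rule put 19 members under read-through names and 177 under ordinary symbols. Span is end minus start. The only circRNA on chromosome Y was left out, though its reads count in the totals. Intervals came from scipy 1.17.1, tables from pandas 2.3.3 and numpy 2.4.6 under Python 3.11.15, and plots from matplotlib 3.10.9.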

Additional observations from a re-analysis of the deposited data

How the results depend on the processing

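No paired analysis was possible because each group had 1 library. The counts called, 19 higher and 17 lower of 102, became 17 and 19 with median of ratios scaling, which shifts log2 ratios by 0.08. They were 19 and 17 with a trimmed mean of ratios (TMM) and 16 and 15 with 2 reads added. For the 96 junctions listed in both libraries they were 16 and 14. With microRNA names removed they were 19 and 17 of 102 (18.6% and 16.7%, against 17.3% and 17.0% of all circRNAs). Shares over all circRNAs were not counted for the scalings, the added reads or the listing in both, so those counts are not set against other circRNAs. With a minimum of 5 reads 48 and 36 of 178 were called (27.0% and 20.2%, against 22.4% and 21.9% of all circRNAs), and with 20 reads 11 and 5 of 65 (16.9% and 7.69%, against 11.6% and 11.1%). At a ratio of 1.5 they were 29 and 30 of 102 (all circRNAs 27.9% and 28.2%), and where the interval also excluded 1, 12 and 10 (all circRNAs 10.7% and 10.2%). With circBase identifiers only they were 13 and 10 of 78 (all such circRNAs 15.4% and 16.2%). Where at least 2 ordinary symbols had to remain once every other kind of name was dropped, they were 7 and 7 of 30. That is 23.3% each, against 17.3% and 17.0% of all circRNAs with 10 or more reads. The median log2 ratio, 0.03, turned to -0.05 with median of ratios, -0.17 where 2 ordinary symbols had to remain and -0.02 without RPS23P5, and was 0.24 with a minimum of 5 reads. Of 22 named ratios, 1 changed side of 2-fold: BABAM1, at -1.05 on the log2 scale with median of ratios.

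With small RNA names kept, 2082 circRNAs had several hosts, with 7.27% of bone cancer pain and 6.70% of control reads, 27.9% listed in both libraries, a median span of 5406 bp and an identifier for 20.6%. Where 2 ordinary symbols had to remain there were 128, which are the 75 with ordinary symbols only, 43 with RPS23P5 and 5 each with a clone or a read-through name besides, with 0.484% of bone cancer pain and 0.430% of control reads and an identifier for 32.0%. With 10 or more reads there were 102, with 1.39% of bone cancer pain and 1.34% of control reads, 94.1% listed in both and an identifier for 76.5%. Without RPS23P5, a setting chosen after seeing the data, the shares were 1.60% of bone cancer pain and 1.55% of control reads. With a median of 4 reads, most single junctions are too shallow to show a 2-fold difference beyond counting error.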

Other observations

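Several loci had all or nearly all of their circular junction reads on junctions with several host names. CSNK1G1, RABGEF1, KCTD7, SPECC1L, AKAP2, CRCP, DPY30, MEMO1, CTAGE5 and FAM53B had no circRNA under their own name alone. ANKHD1 had 98.6% of its reads there, KLC1 97.8% and FNTA 96.2%. In contrast, 3.78% of the reads of SLTM, an RNA-binding protein, were on its 3 junctions with RNF111, a ubiquitin ligase, which had 16 reads in bone cancer pain and 15 in control. For SLTM alone, 8 circRNAs had 397 reads in bone cancer pain and 393 in control (ratio 1.07, 0.924 to 1.23). These loci were picked after their values were seen.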
